A study of Mus musculus with 4 samples.

Results

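The genes of 8 bone morphogenetic protein (BMP) ligands, Bmp2, Bmp3, Bmp4, Bmp5, Bmp6, Bmp7, Bmp8a and Bmp8b, were examined for H3K27me3 in yolk sac erythro-myeloid progenitors (EMPs). They were chosen by name, with earlier results of these data known, as 8 of the 21938 protein-coding genes of the reference annotation. Their peaks were all peaks that the authors' tables assigned to these genes and all peaks that lay in a gene or within 10 kb of it, which gave 23 of 10223 peaks with 500 EMPs and 31 of 15282 peaks with 15000 EMPs. The series held 4 CUT&RUN libraries of mouse E10.5 yolk sac EMPs, sorted as KIT+CD41+CD16/32+ cells from C57BL/6 mice, with 1 H3K27me3 library and 1 IgG control library from each cell number. The genotype label of all 4 libraries reads wild type beside a notation of floxed Ezh2 and Tie2-Cre, a Cre line that is active in endothelium and in the blood cells derived from it, and the cells were taken as wild type. CUT&RUN tethers a nuclease to chromatin through an antibody, here against H3K27me3 or a non-specific IgG, and sequences the fragments that are cut free.

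BMPs are secreted dimers of the transforming growth factor beta superfamily. They bind type I and type II receptor kinases, which phosphorylate Smad1, Smad5 and Smad9, and these enter the nucleus with Smad4 and act on targets such as the Id genes. In the early embryo, Bmp4 is needed for ventral mesoderm, from which yolk sac blood and endothelium arise. H3K27me3 is the trimethylation of histone H3 that Polycomb repressive complex 2 deposits through Ezh2 or Ezh1, and it marks many silent developmental genes whose promoters are rich in CpG dinucleotides.

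With 15000 EMPs, 7 of the 8 ligand genes had an H3K27me3 peak within 3 kb of their start, and Bmp5 had none. With 500 EMPs, 5 genes had one, namely Bmp2, Bmp3, Bmp6, Bmp7 and Bmp8b. At Bmp4 the 500-EMP library had peaks only between 7040 and 8618 bp upstream of the start, and at Bmp8a it had none. Each group was 1 library, so no difference between the cell numbers could be tested. The files used here give positions only, and the height of peaks was not analysed here. The reporting summary of the study lists fewer reads and a lower alignment rate for the 500-EMP library, so fewer aligned reads stood behind its peaks.

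To show how the starts differ in sequence, the 250 bases that precede the RefSeq start are given for 4 of the genes, written on the strand of the gene (GRCm38.p6, the assembly of mm10), with each CpG dinucleotide in capitals. The RefSeq promoter table held 5 of the 8 genes, and Bmp2, Bmp3 and Bmp7 were not matched. Bmp5 is the gene without a peak, Bmp8b has a start under a wide 15000-EMP peak, and Bmp4 and Bmp8a have starts without a peak over them but with a peak in the gene behind.

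Bmp5: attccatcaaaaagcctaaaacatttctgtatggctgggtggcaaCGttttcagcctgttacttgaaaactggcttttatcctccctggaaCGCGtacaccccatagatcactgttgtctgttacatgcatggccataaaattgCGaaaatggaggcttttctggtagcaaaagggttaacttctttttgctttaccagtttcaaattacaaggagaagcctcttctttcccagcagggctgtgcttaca
Bmp8b: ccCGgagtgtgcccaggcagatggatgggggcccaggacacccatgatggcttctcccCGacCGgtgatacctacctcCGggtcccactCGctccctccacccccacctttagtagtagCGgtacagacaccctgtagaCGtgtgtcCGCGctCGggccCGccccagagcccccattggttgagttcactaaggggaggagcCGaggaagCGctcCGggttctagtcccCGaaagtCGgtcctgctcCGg
Bmp4: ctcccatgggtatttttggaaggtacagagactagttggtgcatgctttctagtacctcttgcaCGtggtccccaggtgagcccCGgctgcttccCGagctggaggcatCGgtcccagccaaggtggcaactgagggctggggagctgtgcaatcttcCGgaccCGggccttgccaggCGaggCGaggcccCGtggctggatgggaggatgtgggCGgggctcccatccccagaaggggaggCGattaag
Bmp8a: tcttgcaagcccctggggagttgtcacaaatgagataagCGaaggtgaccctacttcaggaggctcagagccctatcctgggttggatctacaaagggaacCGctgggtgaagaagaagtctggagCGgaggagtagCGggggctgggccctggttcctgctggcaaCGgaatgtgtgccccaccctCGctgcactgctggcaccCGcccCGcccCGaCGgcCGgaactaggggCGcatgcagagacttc

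These bases lie at chr9:75775115-75775364 (plus strand) for Bmp5, chr4:123104911-123105160 (plus strand) for Bmp8b, chr14:46390670-46390919 (minus strand) for Bmp4 and chr4:123343253-123343502 (minus strand) for Bmp8a. The stretch before Bmp5 held 4 CpG dinucleotides and 42.8% G and C. That before Bmp4 held 11 CpG, that before Bmp8a held 12 and that before Bmp8b held 17. The stretch before the RefSeq start of Bmp6, which lies in an exon of the GENCODE gene and is therefore not printed, held 22 CpG. Over the 32851 promoters of the table the median was 6 CpG with quartiles of 2 and 16, so Bmp5 was below the median and the other 4 genes were above it. The ratio of observed to expected CpG was 0.351 for Bmp5, 0.451 for Bmp4, 0.503 for Bmp8a, 0.645 for Bmp8b and 0.745 for Bmp6, beside a median of 0.374. The motif GGGCGG, which is bound by Sp1-like factors, was searched on both strands and was present before Bmp4, Bmp6, Bmp8a and Bmp8b but not before Bmp5, and 32.7% of all promoters held it. The palindrome CGCG was present before Bmp5 and Bmp8b, and 33.8% of all promoters held it. A match of letters is a description of the window and not a measured site.

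The stretch before Bmp8b was covered by a 15000-EMP peak over all 250 bases, and that before Bmp6 over 11 bases. The stretches before Bmp4, Bmp5 and Bmp8a were not covered in either library, and none of the 5 was covered with 500 EMPs. The covered stretches, before Bmp6 and Bmp8b, were thus those with the most CpG of the 5, and the gene with the most, Bmp6, was covered over the fewer bases at this RefSeq start.

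**Figure D1:**
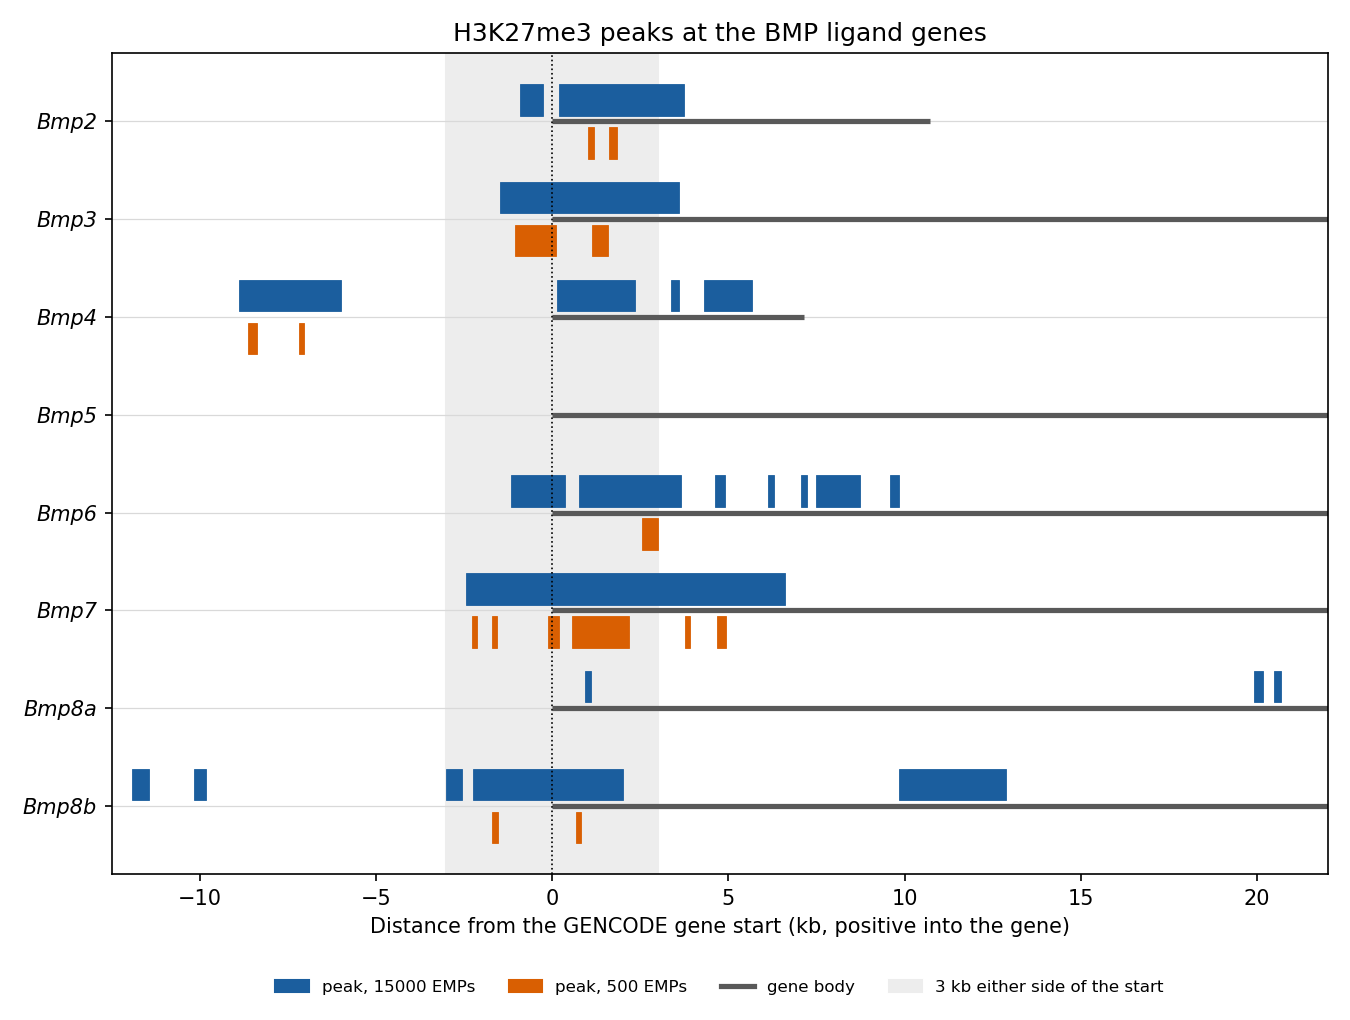
Peaks at the 8 genes by distance from the gene start in kb, with 15000-EMP peaks above and 500-EMP peaks below each gene line. Bmp7 carried the widest peak, Bmp5 carried none, and the 500-EMP peaks of Bmp4 lay only upstream. The axis ends at 22 kb, so longer genes run past its right edge.

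These counts were next set beside all protein-coding genes. With 500 EMPs, 5 of 8 ligand genes were marked within 3 kb of the GENCODE start (62.5%, 95% Wilson interval 30.6 to 86.3%), where 9.92% of all genes were. With 15000 EMPs, 7 of 8 were marked (87.5%, 52.9 to 97.8%), where 17.0% of all genes were. By the distance column of the authors' tables, the same limit gave 5 genes beside 9.73% of all genes with 500 EMPs, and 7 genes beside 16.7% with 15000 EMPs. In the gene or within 10 kb, 6 ligand genes had a peak with 500 EMPs, beside 15.1% of all genes, and 7 had one with 15000 EMPs, beside 25.0%. The start base itself lay under a peak in 2 ligand genes with 500 EMPs (Bmp3 and Bmp7), beside 1.4% of all genes. With 15000 EMPs it did so in 4 ligand genes (Bmp3, Bmp6, Bmp7 and Bmp8b), beside 8.63%, and in 3 without Bmp6 where the RefSeq start was used. The intervals cover counting error only and treat the genes as independent.

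The 8 genes differed in how much of the 6001 bp around the start was covered. Bmp7, which acts in kidney, eye and bone development, had 2223 bp covered with 500 EMPs and 5449 bp with 15000 EMPs, the most of the 8 in both libraries. Bmp3, an atypical member that counteracts other BMPs, had 1612 bp and 4483 bp covered. Bmp8b, a close relative of Bmp8a with roles in germ cells and brown fat, had 304 bp covered with 500 EMPs but 4705 bp with 15000 EMPs. It thus had the least cover of the 5 marked genes in the smaller library and was second only to Bmp7 in the larger.

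Bmp6, an iron-regulated ligand that induces hepcidin, had 443 bp and 3774 bp covered. Bmp2, a ligand for heart and bone formation, had 396 bp and 3450 bp covered. Bmp4 had 0 bp and 2218 bp covered. Bmp8a had 0 bp and 182 bp covered, and Bmp5, a ligand for skeletal form, had 0 bp in both. Genes with a peak in this window had a median of 789 bp covered with 500 EMPs (2177 genes) and 2743 bp with 15000 EMPs (3728 genes). Bmp7 and Bmp3 were above the median in both libraries, Bmp2, Bmp6 and Bmp8b were below it with 500 EMPs and above it with 15000 EMPs, and Bmp4 and Bmp8a were below it with 15000 EMPs. Only 1.57% of all genes had more of the window covered than Bmp7 with 15000 EMPs, where it ranked 345th of 21938, and it ranked 352nd with 500 EMPs.

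**Figure D2:**
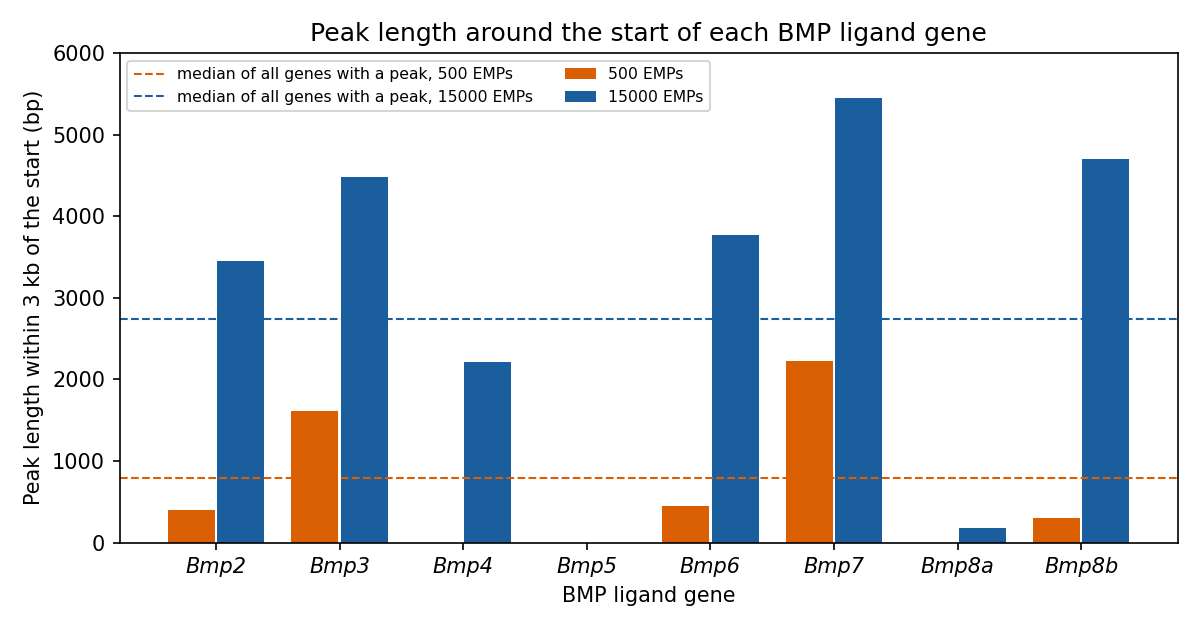
Length in bp covered by peaks in the window 3 kb either side of the start, 1 bar per gene and library, each from 1 library and so without an error bar. The dashed lines are the medians of all protein-coding genes with a peak in the window, 789 bp with 500 EMPs and 2743 bp with 15000 EMPs.

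The length seen with 500 EMPs, as a percentage of that seen with 15000 EMPs, was 40.8% at Bmp7 and 36.0% at Bmp3. It was 11.7% at Bmp6, 11.5% at Bmp2 and 6.46% at Bmp8b. The median of these 5 genes was 11.7%, beside 23.5% (quartiles 12.1 and 39.3%) over the 2155 genes with a peak in both libraries. Cell number went together with the number of aligned reads, the p-value threshold of the peak calls, the read length, the PCR cycles and the instrument, so their parts in these differences cannot be told apart.

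Bmp7 (ENSMUSG00000008999, chromosome 2, minus strand, start at 172940321) lay under a single 15000-EMP peak of 9057 bp, from 172933713 to 172942769. This peak began 2448 bp upstream of the start, crossed the start and the first coding exon and ended 6608 bp into the gene. Of its length, 5942 bp was intron, 415 bp was coding and 252 bp was non-coding exon. It was the 220th widest of the 15282 peaks, with 1.43% of the list wider. With 500 EMPs the same stretch held 6 separate peaks of 137, 137, 138, 277, 327 and 1622 bp, which together covered 29.1% of it. The 327-bp peak lay across the start and the 1622-bp peak began 571 bp behind it.

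Bmp7 was also the only one of the 8 genes to which the authors' tables assigned peaks far beyond 10 kb in both libraries. These were 8 peaks with 500 EMPs, of 137 to 439 bp and 2442 bp in all, and 8 peaks with 15000 EMPs, of 453 to 2177 bp and 8089 bp in all. They formed 2 clusters behind the end of the gene, one between 77628 and 80867 bp and one between 106993 and 116387 bp from it by the authors' distances. No annotated gene overlapped any of them, and the next protein-coding gene beyond them, Tfap2c, lay 309389 bp from Bmp7. In the nearer cluster both 500-EMP peaks overlapped a 15000-EMP peak, and in the farther cluster 4 of 6 did. Assignment to Bmp7 rests on distance alone and no contact with the gene was measured.

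**Figure D3:**
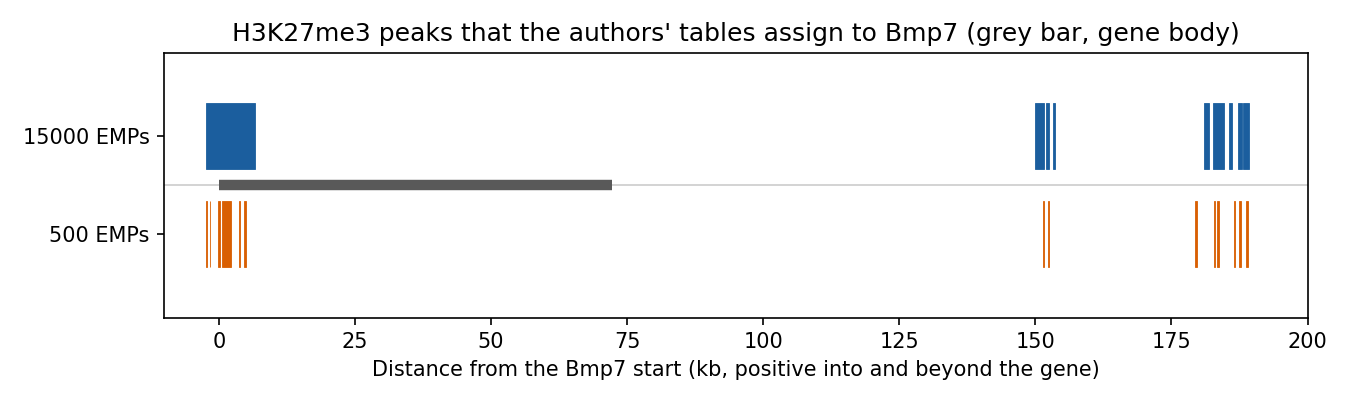
Peaks assigned to Bmp7 in the authors' tables, by distance from its start in kb, with the gene body in grey. Both libraries placed peaks at the start and in 2 clusters beyond the end of the gene, with none in between.

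Bmp3 (ENSMUSG00000029335, chromosome 5, plus strand, start at 98854415) had 1 peak of 5072 bp with 15000 EMPs, from 98852933 to 98858004, which reached from 1482 bp upstream to 3589 bp downstream of the start. With 500 EMPs it held a peak of 1159 bp across the start and a peak of 453 bp in the intron behind it, 31.8% of its length together. Bmp8b (ENSMUSG00000002384, chromosome 4, plus strand, start at 123105165) likewise had a peak across its start with 15000 EMPs, 4256 bp from 123102934 to 123107189. With 500 EMPs this stretch held 167 bp upstream and 137 bp in the intron, 7.14% of its length, and the start base was not covered.

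Bmp2 (ENSMUSG00000027358, chromosome 2, plus strand, start at 133552159) had a gap at its start. A 15000-EMP peak of 647 bp ended 252 bp upstream of the start and a peak of 3541 bp, from 133552357 to 133555897, began 198 bp downstream. The wider of them held 1345 bp of exon, of which 343 bp was coding. The 2 peaks with 500 EMPs, of 188 and 208 bp, lay inside this wider peak, the first almost wholly in non-coding exon and the second in intron.

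Bmp6 (ENSMUSG00000039004, chromosome 13, plus strand, GENCODE start at 38345107) had 7 peaks with 15000 EMPs, the most of the 8 genes. The first, of 1525 bp, crossed the GENCODE start, and the second, of 2896 bp from 38345859 to 38348754, held 655 bp of coding sequence. The RefSeq start, at 38345716, fell in the gap between them. The other 5 peaks, of 171 to 1261 bp, lay in the intron between 4635 and 9829 bp behind the start. A single 500-EMP peak of 457 bp lay within the second peak, so at Bmp6 the smaller library found a stretch of intron and not the start.

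Bmp4 (ENSMUSG00000021835, chromosome 14, minus strand, start at 46390669) was the only one of the 8 genes whose 500-EMP peaks all lay upstream of the start. With 15000 EMPs a peak of 2218 bp, from 46388307 to 46390524, began 145 bp behind the start, and peaks of 236 bp and 1357 bp followed in the gene. The 1357-bp peak covered 373 bp of Bmp4 coding sequence, although the authors' table gave it to Gm15217, a gene model that overlaps Bmp4. Together these 3 peaks covered 53.3% of the gene, the largest percentage of the 8. No 500-EMP peak overlapped any of them.

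Another 15000-EMP peak, of 2917 bp, lay 5980 to 8896 bp upstream of Bmp4, outside any annotated gene, and it did hold 500-EMP peaks, of 137 and 258 bp. The 137-bp piece, at chr14:46397709-46397845, is the part of the Bmp4 locus closest to the start that both libraries called. It is given on the strand of Bmp4 with CpG in capitals.

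Bmp4 upstream piece: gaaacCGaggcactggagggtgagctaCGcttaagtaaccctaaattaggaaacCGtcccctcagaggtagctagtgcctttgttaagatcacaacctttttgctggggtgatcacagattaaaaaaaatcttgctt

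It held 3 CpG and 44.5% G and C, and 137 bp was the smallest width in the 500-EMP list, shared by 1759 of its peaks. The whole 15000-EMP peak around it held 59 CpG, or 2.02 per 100 bp, where the 2218-bp peak behind the start held 101, or 4.55 per 100 bp. The Bmp4 peak that recurred in both libraries was thus the least CpG-dense of the 4 peaks at this gene.

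Bmp8a (ENSMUSG00000032726, chromosome 4, minus strand, start at 123343252) had no peak with 500 EMPs, and the nearest one lay 104182 bp away at Heyl. With 15000 EMPs its sole peak near the start was 182 bp wide, at chr4:123342147-123342328, 924 bp behind the start and wholly intronic. It is given on the strand of Bmp8a with CpG in capitals, since the call at Bmp8a within 3 kb rests on it.

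Bmp8a intronic peak: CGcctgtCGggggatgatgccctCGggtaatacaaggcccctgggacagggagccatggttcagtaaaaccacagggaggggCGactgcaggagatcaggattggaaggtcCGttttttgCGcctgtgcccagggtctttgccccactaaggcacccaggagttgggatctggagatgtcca

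The peak held 6 CpG and 59.3% G and C, and 95.7% of the list was wider. None of the 124 stretches of 59 bases in it, the read length of this library, occurred in Bmp8b or within 10 kb of it. This was examined because Bmp8a and Bmp8b are paralogs on the same chromosome, each with an Oxct2 gene, a testis form of a ketone body enzyme, inside it. The other 2 peaks in Bmp8a, of 202 and 235 bp, lay at Oxct2a, and the authors' table gave them to that gene. All 144 of the 59-base stretches in the 202-bp peak and 59.3% of those in the 235-bp peak also occurred at the Bmp8b locus. A single read from a shared stretch could therefore match either copy. Fragments were read from both ends, and the placing of such pairs was not examined.

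The matching peak inside Bmp8b, 3043 bp from 123115007 to 123118049 at Oxct2b, shared 31.4% of its 59-base stretches with the Bmp8a locus and held no 500-EMP peak. The peak across the Bmp8b start shared 1.57% and both 500-EMP peaks at Bmp8b shared 0% at the read length of 76 bases. In the whole window of 3 kb either side of the start, where 4705 bp was covered at Bmp8b and 182 bp at Bmp8a, 1.11% of the 59-base stretches of each gene occurred at the locus of the other. Without the peaks at Oxct2a and Oxct2b, 7 ligand genes still had a 15000-EMP peak in the gene or within 10 kb.

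Bmp5 (ENSMUSG00000032179, chromosome 9, plus strand, start at 75775364) had no peak in its 124947 bp, and none within 10 kb, in either library. The nearest peak lay upstream in Tmod2 in both, at a distance of 164907 bp with 500 EMPs and 163392 bp with 15000 EMPs, and the 500-EMP peak lay inside that of the larger library. The level of H3K27me3 at Bmp5 below the threshold of the peak caller was not analysed here.

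In all, 15 peaks with 500 EMPs (5802 bp) and 22 peaks with 15000 EMPs (40277 bp) lay in a ligand gene or within 10 kb. All 15 peaks of the smaller library shared 1 bp or more with a peak of the larger one (100%, 95% Wilson interval 79.6 to 100%), and they lay inside them over their whole length. Over all 10223 peaks of that library the share was 91.2%. Conversely, 6 of 22 were found again with 500 EMPs (27.3%, 13.1 to 48.1%), where 32.2% of all 15282 peaks were. Both intervals held the share of all peaks. With peaks within 3 kb joined in both lists, 6 of 11 were found again (54.5%), beside 45.6% of all joined peaks. The 6 peaks lay 1 each at Bmp2, Bmp3, Bmp4, Bmp6, Bmp7 and Bmp8b. These 6 peaks had a median width of 3898 bp, from 2896 to 9057 bp, and the other 16 had a median of 290.5 bp, from 171 to 3043 bp. The only peak among the 16 wider than the narrowest of the 6 was that at Oxct2b. At Bmp2, Bmp4, Bmp6 and Bmp8b, the 15000-EMP peak that overlapped was the widest of that gene. Bmp3 and Bmp7 had only 1 such 15000-EMP peak each, so there it could not be otherwise.

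**Figure D4:**
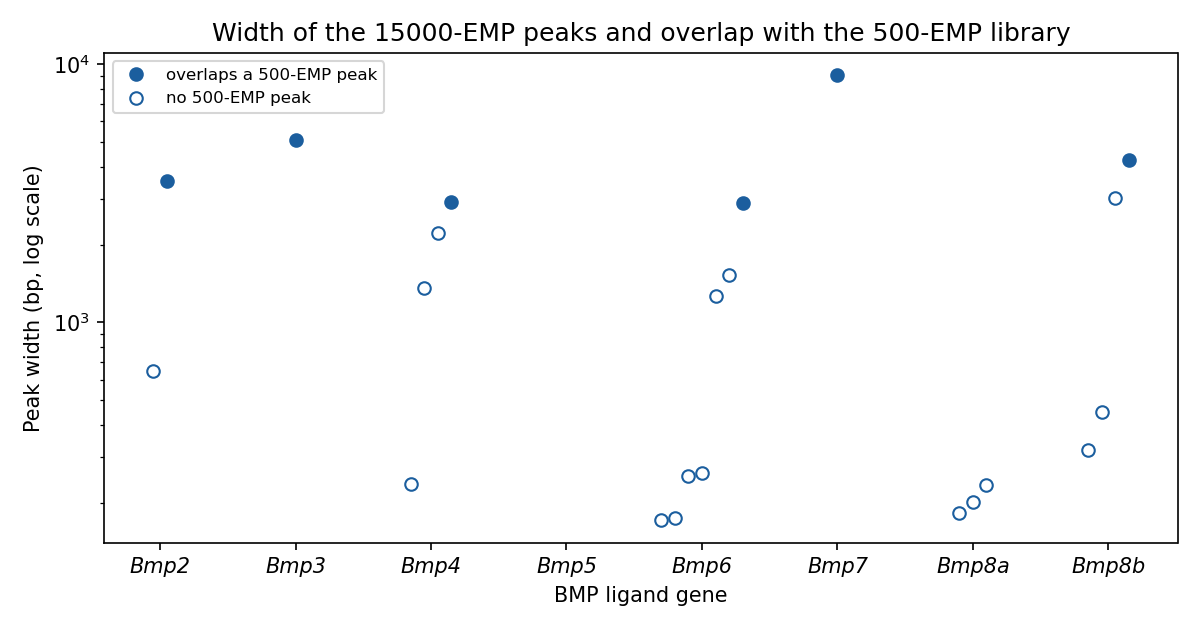
Width in bp (log scale) of each of the 22 peaks with 15000 EMPs in a ligand gene or within 10 kb, 1 point per peak. Filled points overlap a 500-EMP peak, and at Bmp2, Bmp4, Bmp6 and Bmp8b the filled point is the widest of the gene. Bmp3 and Bmp7 have only 1 point each, which is filled.

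By position, 2 of the 15 peaks with 500 EMPs crossed a start, 8 lay in a gene and 5 lay upstream. Of the 22 peaks with 15000 EMPs, 4 crossed a start, 14 lay in a gene and 4 lay upstream. Intron made up 55.1% of the covered length with 500 EMPs and 57.1% with 15000 EMPs, exon made up 10.3% and 13.9%, and sequence outside the gene 34.5% and 28.9%. In bins of 500 bp, the mean cover of the 8 genes was highest from 1000 to 1499 bp behind the start in both libraries. It was 26.7% there with 500 EMPs, with 3 genes covered, and 77.7% with 15000 EMPs, with 7 genes covered. Over all protein-coding genes the mean cover of this bin, chosen because it was the highest of the ligand genes, was 2.82% and 11.4%. The same bin was the highest over all genes and over genes with a peak within 3 kb, in both libraries, and among the latter its mean cover was 28.4% and 67.2%. The like means of the ligand genes with a peak were 42.7% with 500 EMPs (5 genes) and 88.7% with 15000 EMPs (7 genes).

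The peaks at the ligand genes had a median ratio of observed to expected CpG of 0.394 with 500 EMPs and 0.458 with 15000 EMPs. The medians over all peaks were 0.28 and 0.283. For the ligand-gene peaks that reached within 3 kb of a start, the median was 0.264 with 500 EMPs (11 peaks), below that of all peaks, and 0.458 with 15000 EMPs (10 peaks). The ratio of the whole genome was 0.19. The median of G and C was 51.5% and 51.2% at the ligand genes, beside 49.1% and 49.2% over all peaks. Among the peaks in a ligand gene or within 10 kb the ratio was lowest, at 0.0781, in a 137-bp 500-EMP peak upstream of Bmp7, and highest, at 0.984, in the 202-bp 15000-EMP peak at Oxct2a inside Bmp8a. The far peaks behind Bmp7 had medians of 0.243 with 500 EMPs and 0.243 with 15000 EMPs.

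Genes with the most similar pattern were then sought by the Jaccard index, the covered length shared at equal distances from the start over the length covered in either gene, within 10 kb and both libraries, over 2593 genes with peaks in both. The most similar genes were Kcnj8 (0.762) and Lrrtm3 (0.754) to Bmp2, and Cd83 (0.80) and Tmem74b (0.786) to Bmp3. They were Tfap2e (0.729) and Nhlh2 (0.696) to Bmp7, and Ccdc136 (0.756) and Optc (0.737) to Bmp8b. For Bmp6 they were Hba-x (0.61) and Atp2b2 (0.572), and for Bmp4 Eef1akmt3 (0.478) and Cdr2l (0.476). Bmp4 thus had the lowest best match of these 6. Among the ligand genes themselves the index was highest between Bmp2 and Bmp3 (0.575) and lowest between Bmp4 and Bmp8b (0.178).

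The rest of the pathway was described by the same measure, a peak within 3 kb of the start, beside the 9.92% of all genes with 500 EMPs and the 17.0% with 15000 EMPs. Of 13 other BMP and GDF ligands, 3 had a peak with 500 EMPs and 4 with 15000 EMPs, and Gdf7, Gdf10 and Gdf6 had the longest cover (6001, 5717 and 4447 bp with 15000 EMPs). Bmp10 and Bmp15 had none. Of 12 TGF-beta and activin ligands, 4 and 8 had a peak, with Lefty1, Inhbb and Inhba the longest (4721, 4610 and 4196 bp). The 8 genes from Bmp2 to Bmp8b thus had the highest share of the 3 ligand lists in both libraries, with intervals that overlapped those of both other lists. This order belongs to the lists as drawn, in which the unmarked Bmp10, Bmp15 and Gdf2 were counted among the other ligands. The lists were chosen with earlier results of these data known.

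Of 7 BMP receptor genes, 2 had a peak with 500 EMPs and 3 with 15000 EMPs. Bmpr1b and the endothelial receptor Acvrl1 had one in both libraries (4452 and 3555 bp with 15000 EMPs) and Bmpr1a had 887 bp with 15000 EMPs, whereas Bmpr2, Acvr1, Acvr2a and Acvr2b had none. Of 5 co-receptors, Rgma, Rgmb and Hjv had a peak in both libraries, and Eng and Tgfbr3 in neither. Of 8 Smads and Smad regulators, 0 had a peak with 500 EMPs (upper limit of the interval 32.4%) and 3 with 15000 EMPs, namely Smad9, Smad7 and Smurf1 with 1925, 1143 and 1050 bp. The other 5, Smad1, Smad5, Smad4, Smad6 and Smurf2, had none.

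Secreted antagonists, which bind BMPs or activins outside the cell, had a peak in 9 of 16 genes with 500 EMPs and in 11 with 15000 EMPs. Grem1, Chrd and Chrdl2 had the longest cover, with 4943, 4939 and 4860 bp with 15000 EMPs and 423, 137 and 2314 bp with 500 EMPs. Of 6 processing enzymes, 2 and 5 had a peak, and Furin, which cleaves BMP precursors, was the gene without one. Of 9 target genes, 7 had a peak in both libraries, among them Msx2, Msx1 and Id2 with 5753, 5544 and 4763 bp with 15000 EMPs, and Id1 and Bambi had none.

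**Figure D5:**
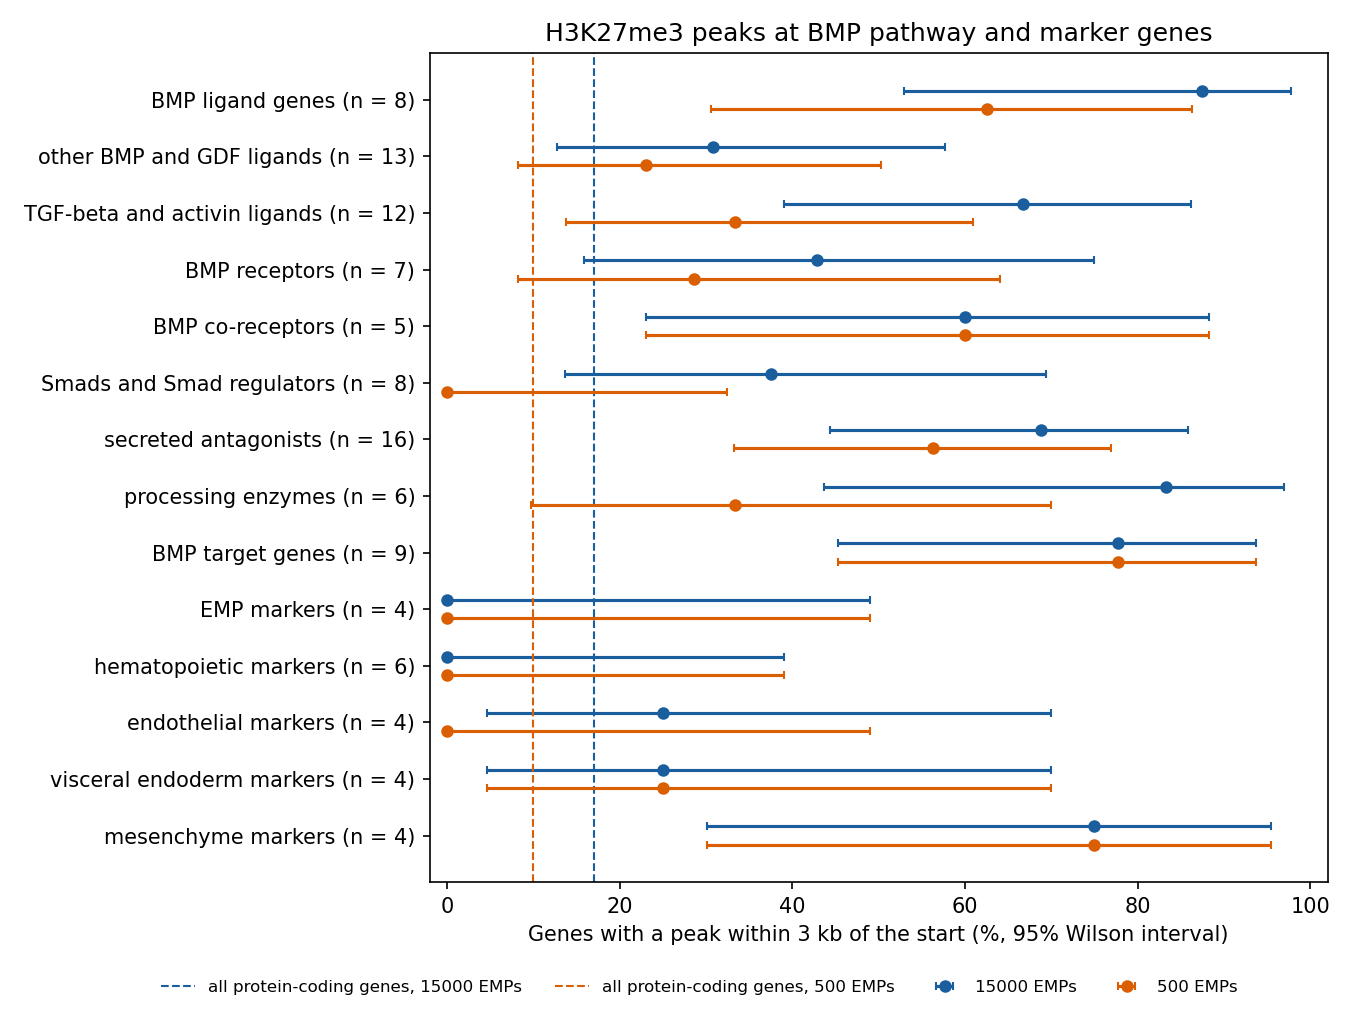
Percent of genes in each list with a peak within 3 kb of the start in each library, with 95% Wilson intervals for counting error. The dashed lines mark all protein-coding genes, 9.92% with 500 EMPs and 17.0% with 15000 EMPs. The BMP ligand genes stood at 62.5% and 87.5%, and EMP and hematopoietic markers at 0%.

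Markers were examined beside the label of the cells. None of the 4 EMP marker genes Kit, Itga2b, Fcgr2b and Fcgr3, and none of 6 hematopoietic genes, among them Runx1, Gata1 and Tal1, had a peak within 3 kb in either library. With 9.92% and 17.0% of all genes marked, few such peaks would be found in lists this short, and the upper limits of the intervals were 49.0% and 39.0%. Among 4 endothelial genes Kdr had one with 15000 EMPs (274 bp), among 4 visceral endoderm genes Foxa2 had one in both libraries, and of 4 mesenchyme genes Pdgfra, Hand1 and Col1a1 had one in both. Cdh5, Pecam1, Tek, Afp, Ttr and Apoa1 had none either, so these lists do not tell EMPs from endothelial or endodermal cells. A peak list does not give the amount of other cells in a sort, and their part in the peaks at the ligand genes was not tested.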

How the data were processed

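H3K27me3 CUT&RUN was analysed in 2 libraries, from 500 and 15000 EMPs, each called by the authors against the IgG library of the same cell number. Per the labels and the methods, reads (76 bp and 59 bp, 17 and 16 PCR cycles) were aligned to mm10 with Bowtie2 2.2.1, and broad peaks were called with MACS2 2.1.2 at p-value thresholds of 0.01 (500 EMPs) and 0.05 (15000 EMPs). In the study's command listing the library names stand swapped between these thresholds, and the lists were taken as labelled. Peaks were annotated with ChIPpeakAnno. The labels and the methods name different library kits. The deposited files used here hold peak positions, assigned genes and distances, with no score, p-value, fold or read count, so presence of a peak was the sole measure. Coverage tracks were not used here. The reporting summary of the study gives a lower depth and alignment rate for 500 than for 15000 EMPs, and no correction for this was possible from peak positions.

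Coordinates are 1-based on mm10, with ends as in the peak lists, and 0 peaks ran past a chromosome end of the reference. Starts were the 5' ends of genes in GENCODE vM21. Peaks that shared 1 bp or more counted as overlapping, and shares carry 95% Wilson intervals. Analysis used Python 3.11.15, pandas and scipy, and the interval code was tested on simulated data with 0 mismatches. All 8 genes are named. From each other list at most 3 genes with the longest cover near the start with 15000 EMPs are named, and those without a peak where few. The genes and lists were chosen with earlier results of these data known. Groups came from the sample labels. With 1 library per group no test was made. Alternatives were distance limits, flanks, joining of peaks, minimum overlap, the smallest peaks, other gene starts and the peaks at Oxct2a and Oxct2b.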

Additional observations from a re-analysis of the deposited data

How the results depend on the processing

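Of 71 values for the genes together under alternatives, 59 stayed within 1.5 times the reported value, or within its Wilson interval for the shares, and 12 moved. A limit of 1 kb left 3 of the 8 genes with a 500-EMP peak, both by the authors' distance and by the GENCODE start. Joining peaks within 3 kb left 6 peaks of 15234 bp with 500 EMPs and 11 peaks with 15000 EMPs, of which 54.5% overlapped, and joining within 1 kb left 13 with 15000 EMPs. The mean cover around the start, 10.4% of the window with 500 EMPs and 50.5% with 15000 EMPs, was 3.63% and 23.0% in a window of 10 kb either side. With at least 50% of both peaks shared, 0% overlapped in either direction, and with at least 50% of the 15000-EMP peak 0% did, since the 500-EMP peaks were short pieces of wider peaks. The RefSeq starts and the removal of peaks at Oxct2a and Oxct2b were chosen after seeing the data, and under them the only count of genes that changed was that of starts under a 15000-EMP peak, from 4 to 3 at the RefSeq starts. Of 64 values of single genes, 16 moved. Among them was the cover at Bmp8b with 500 EMPs, which fell from 5.07% to 2.78% of the window without the smallest peaks. No paired analysis was possible because each group was 1 library. The threshold of the 15000-EMP calls was the more lenient, and without peak scores it could not be made equal.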
